A study of Homo sapiens with 6 samples.

Results

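The AP-1 transcription factors of the FOS and JUN families were examined in HCCLM3 cells, an established human hepatocellular carcinoma line with metastatic behaviour, by RNA sequencing. The 8 genes FOS, FOSB, FOSL1, FOSL2, JUN, JUNB, JUND and BATF3 were taken by name from the 20263 rows of the count table, and all 8 had a row. Cells were kept in serum-containing medium for 24 h with CC-885 (3 libraries) or with its solvent DMSO (3 libraries), at a dose that the labels leave out. CC-885 is a small molecule that binds cereblon and so redirects its CUL4 ligase to new proteins, among them the translation termination factor GSPT1. Whether replicate libraries stem from separate cultures is not stated, so p-values measure only the spread among these libraries, which may be technical.

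AP-1 is a dimer of basic leucine zipper proteins that binds the DNA element TGACTCA. JUN proteins pair with each other or with FOS proteins, while FOS proteins need a JUN partner to bind DNA. FOS and JUN are immediate early genes: mitogens and stress switch on their transcription through MAP kinases, the serum response factor SRF and factors of the CREB and ATF group, and their mRNAs decay fast. JUND and FOSL2 (FRA2) are commonly the steadier members of their groups, and BATF3 is a short partner of JUN proteins without a transactivation domain. In liver cells JUN is known for its part in regeneration and in tumour formation.

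Libraries held 30432509 to 39809131 counts each, and a count of 0 allowed up to 0.0754 to 0.0986 CPM (3 counts of the unscaled total, counting error only). Everywhere else CPM is the count relative to the TMM-scaled size of its library. Defining markers of liver cells were absent or near 0: of 11 hepatocyte and hepatoma markers 0 reached a mean of 5 CPM, and ALB, AFP, APOB, TTR and GPC3 had 0 counts in all 6 libraries. The summed level of these markers was 0.232 to 0.572 CPM with CC-885 and 1.23 to 1.55 CPM with DMSO. Most of the DMSO sum was HNF4A, which was lower with CC-885 (0.214 ± 0.183 against 1.25 ± 0.184 CPM, edgeR adjusted p = 0.00156). The other markers of this class were too low to be tested. The simple-epithelial keratins KRT8 and KRT18 were abundant, and the 5 epithelial markers summed to 1370 to 1661 CPM with CC-885 and 1811 to 2216 CPM with DMSO. Only these 2 keratins of the 5 reached a mean of 5 CPM. EPCAM was at 3.64 against 3.46 CPM, CDH1 at 3.78 against 4.5 CPM and KRT19 at 0 against 0.0174 CPM (CC-885 against DMSO). The 6 fibroblast markers summed to 152 to 186 CPM with CC-885 and 158 to 189 CPM with DMSO, but moved in opposite directions: COL1A1 was higher (155 ± 16.3 against 104 ± 6.22 CPM, edgeR adjusted p = 0.00327), PDGFRB (14.1 ± 0.370 against 70.9 ± 10.7 CPM, adjusted p = 8.63e-07) and the scarce DCN (0.127 ± 0.00902 against 1.21 ± 0.308 CPM, adjusted p = 8.21e-05) were lower, and LUM had 0 counts. The 5 immune markers summed to 3.64 to 5.06 and 4.57 to 5.5 CPM, with PTPRC and CD3E at 0 counts. The 4 endothelial markers summed to 3.11 to 4.93 CPM with CC-885 and 0.871 to 1.35 CPM with DMSO. CDH5 (2.11 ± 0.366 against 0.168 ± 0.0143 CPM, edgeR adjusted p = 9.9e-06) and VWF (1.88 ± 0.655 against 0.928 ± 0.258 CPM, adjusted p = 0.0232) were higher. KDR had 0 counts, and PECAM1 was too low to be tested. The part of these marker levels in the AP-1 results was not tested.

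The members differ in layout. JUN, JUNB and JUND have 1 exon in their longest GENCODE 29 transcript, BATF3 has 2, and the 4 FOS-type genes have 4. Promoter sequences were found in the RefSeq table of build GRCh38.p14 for 6 of the 8 members. The 120 bases just before each start site are printed 5' to 3' on the strand of the gene, because some of the elements that receive early signals are known to lie there. The element bound by SRF was not searched for, and elements further up are not covered. What these sequences have to do with the changes in RNA was not tested. Capitals mark TGACGT (the core of a cAMP response element, searched on both strands), TGACATCA (the AP-1-like element for which the JUN promoter is known, both strands) and TATAAA (the TATA box, strand of the gene).
FOS (chr14:75278708-75278827, plus strand): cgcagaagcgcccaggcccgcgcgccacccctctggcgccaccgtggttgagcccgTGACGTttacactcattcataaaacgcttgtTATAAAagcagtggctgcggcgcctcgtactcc
FOSB (chr19:45467876-45467995, plus strand): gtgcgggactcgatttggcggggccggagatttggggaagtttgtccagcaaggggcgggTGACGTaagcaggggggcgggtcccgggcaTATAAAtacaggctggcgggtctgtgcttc
FOSL2 (chr2:28392738-28392857, plus strand): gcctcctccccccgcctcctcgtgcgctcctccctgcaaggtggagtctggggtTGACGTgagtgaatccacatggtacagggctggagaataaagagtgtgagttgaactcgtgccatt
JUN (chr1:58784048-58784167, minus strand): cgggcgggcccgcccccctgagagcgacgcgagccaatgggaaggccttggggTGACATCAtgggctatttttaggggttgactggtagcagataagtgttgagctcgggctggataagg
JUNB (chr19:12791366-12791485, plus strand): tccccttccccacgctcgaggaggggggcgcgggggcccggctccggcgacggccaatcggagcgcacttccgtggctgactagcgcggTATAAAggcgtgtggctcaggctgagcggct
JUND (chr19:18281623-18281742, minus strand): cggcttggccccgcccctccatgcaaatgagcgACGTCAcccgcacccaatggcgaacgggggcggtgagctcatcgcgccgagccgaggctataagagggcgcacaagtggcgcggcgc
TGACGT began at base -64 of FOS, -60 of FOSB and -66 of FOSL2, counted from the start site. In JUN the related TGACATCA began at base -67, close to the same place. JUND held TGACGT on its other strand at base -87, and a full TGACGTCA, which contains TGACGT, lay further up at base -200. JUNB held none of these in the 300 bases searched, from 250 before to 50 after the start. TATAAA began at base -33 of FOS, -30 of FOSB and -31 of JUNB. FOSL2 also held the AP-1 element TGACTCA at base 5, past its start site. Of all 27305 promoters in that set, 8.32% held TGACGT, 1.98% TGACGTCA, 2.71% TGACATCA, 4.92% TGACTCA and 7.71% TATAAA. These matches describe the letters only. The 250 bases before the start held 62 to 74.8% G and C in these 6 genes.

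All 8 members rose with CC-885, by 1.52-fold (FOSL2) to 20.4-fold (JUN), against a background in which 25.8% of the 13444 tested genes were called higher and 52.6% in either direction (edgeR quasi-likelihood test, adjusted p below 0.05). None was lower, while 26.8% of all tested genes were. Lower members were also absent at an unadjusted p below 0.05 (0 genes) and by DESeq2 (0) or limma-voom (0). In all 8 every CC-885 library lay above every DMSO library, which held for 29.9% of tested genes. The increase was at least 4-fold in 5 members (JUN, FOSB, FOS, FOSL1 and JUNB), a size that 1.61% of tested genes reached as called increases. The median log2 fold change of the members was 2.53, and that of all tested genes -0.04. The members, and the lists below, were chosen with earlier results of these data known. Comparisons of them with all tested genes are therefore descriptive only. All levels are relative to the other RNA of a library, and in bulk RNA a change in the number of responding cells and a change in RNA per cell cannot be told apart.

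**Figure D1:**
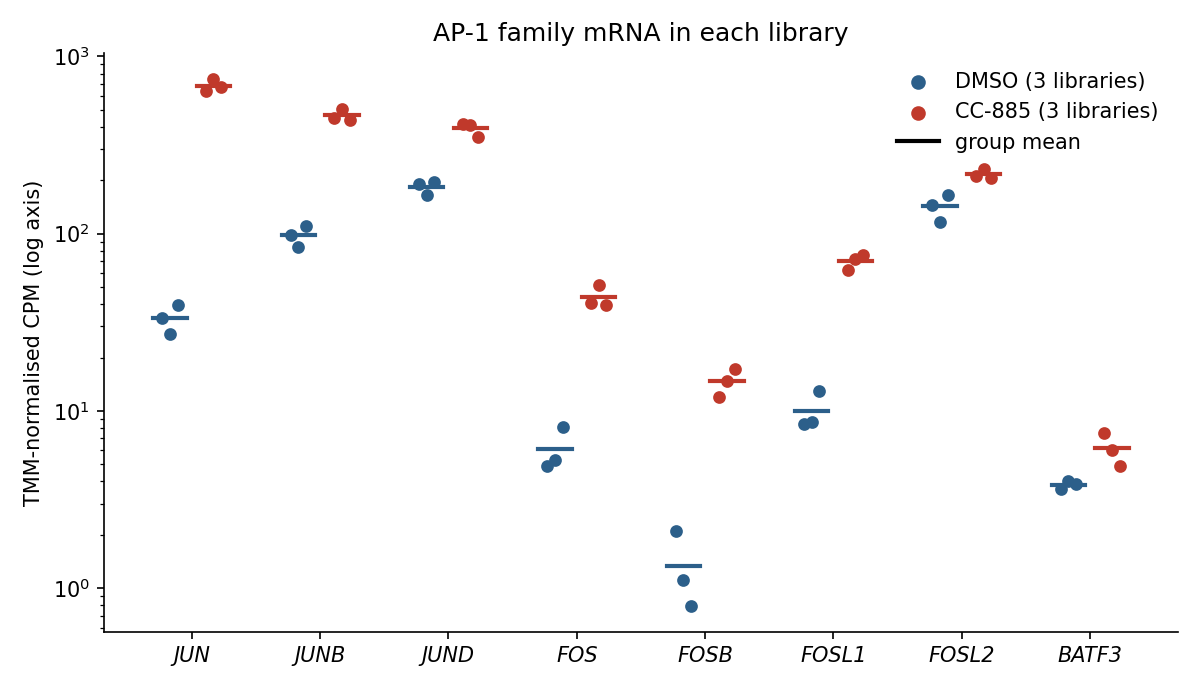
TMM-normalised CPM (log axis) of the 8 AP-1 genes in the 6 libraries, with each point a library and each bar a group mean. The CC-885 points lie above the DMSO points for every gene, widest apart for JUN (684 against 33.4 CPM) and closest for FOSL2 and BATF3.

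Among the JUN proteins, which can bind DNA as homodimers, JUN itself changed most. JUN (ENSG00000177606), the classic stress- and mitogen-induced member, gave 639, 742 and 669 CPM in CC-885 replicates 1 to 3 and 33.6, 27.3 and 39.4 CPM in DMSO replicates 1 to 3. The lowest CC-885 library was far above the highest DMSO library. The means were 684 ± 53.1 and 33.4 ± 6.07 CPM (SD, n = 3), a log2 fold change of 4.35 (SE 0.18, edgeR adjusted p = 5.36e-08). By size of increase JUN ranked 27 among the 13444 tested genes, and by p it ranked 8.

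JUNB (ENSG00000171223), a JUN protein with weaker activating power that is also known to oppose JUN, gave 446, 508 and 438 CPM with CC-885 and 98.3, 83.7 and 111 CPM with DMSO. The groups were well apart, and CC-885 replicate 2 was again the highest. JUNB rose by 2.25 on the log2 scale (SE 0.15, edgeR adjusted p = 1.3e-06), from 97.7 ± 13.7 to 464 ± 38.2 CPM. It overlaps HOOK2 on the opposite strand, and without a stated strand in the counting, reads of the pair cannot be told apart. HOOK2 was at 12.1 ± 1.26 against 14.95 ± 0.216 CPM and was not called (-0.31, adjusted p = 0.09).

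JUND (ENSG00000130522), the JUN member that many resting cells already express, had the highest level per length of all 8 in DMSO and the smallest change among the JUN genes. It gave 416, 412 and 352 CPM with CC-885 and 189.7, 165 and 195.5 CPM with DMSO. The groups did not overlap, and each spanned a narrow range. Its log2 fold change was 1.10 (SE 0.14, edgeR adjusted p = 8.11e-05), or 2.15-fold.

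Among the FOS proteins, which bind DNA only with a partner, FOSB, FOS and FOSL1 rose by larger factors than FOSL2. FOS (ENSG00000170345), the prototype early gene, gave 40.9, 51.0 and 39.7 CPM with CC-885 and 4.91, 5.31 and 8.1 CPM with DMSO. DMSO replicate 3 was the highest control and still far below every CC-885 library. FOS rose 7.2-fold (log2 fold change 2.85, SE 0.21, edgeR adjusted p = 2.41e-06). FOSB (ENSG00000125740), an early gene whose product also exists as a truncated form that these gene counts cannot separate, was the lowest member per length in DMSO. It gave 12.0, 14.7 and 17.3 CPM with CC-885 and 2.11, 1.12 and 0.798 CPM with DMSO, the latter from 81, 41 and 26 counts. The FOSB controls spread more, in proportion, than those of the other members, but did not reach the CC-885 range. FOSB rose 10.8-fold (3.43, SE 0.33, edgeR adjusted p = 5.18e-05). Its gene overlaps ERCC1 on the opposite strand, a repair nuclease subunit at 95.9 ± 2.25 against 105.5 ± 11.6 CPM that was not called (-0.14, adjusted p = 0.38). As for JUNB, reads of the pair cannot be told apart without a stated strand. In DMSO the mean of FOSB was only 1.34 CPM, and the part of ERCC1 reads in it was not tested.

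FOSL1 (ENSG00000175592), which encodes FRA1, the FOS relative tied to invasive carcinoma cells and to lasting ERK activity, gave 62.5, 72.4 and 75.5 CPM with CC-885. With DMSO it gave 8.43, 8.66 and 12.98 CPM, again with replicate 3 as the highest control. Its rise of 7-fold (log2 fold change 2.81, SE 0.18, edgeR adjusted p = 1.14e-06) was close in size to that of FOS. FOSL2 (ENSG00000075426), which encodes FRA2, gave 211, 232 and 206 CPM with CC-885 and 146, 116 and 165 CPM with DMSO. The gap between the groups was narrow, and the increase of 0.60 on the log2 scale (SE 0.15, edgeR adjusted p = 0.00562) was the smallest of the 8. It ranked 2622 by size of increase among the tested genes. GENCODE 29 places AC104695.3 (typed as sense intronic) on the same strand and FLJ31356 (typed as antisense) on the opposite strand. Each overlaps FOSL2, and both lack a row of their own. How reads were counted is not given, so any of their reads that entered the FOSL2 count cannot be told apart.

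BATF3 (ENSG00000123685) was scarce in both groups, at 7.49, 6.03 and 4.91 CPM with CC-885 and 3.63, 4.03 and 3.87 CPM with DMSO. CC-885 replicate 1 was the highest and replicate 3 the lowest, close to the controls. BATF3 rose by 0.68 on the log2 scale (SE 0.19, edgeR adjusted p = 0.0124), but with CC-885 replicate 1 left out it was not called (0.52, adjusted p = 0.063).

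The make-up of both subfamilies differed between the groups. Levels were divided by the length of the longest GENCODE 29 transcript (CPM per kb) so that members could be set side by side, and shares were taken within JUN, JUNB and JUND and within FOS, FOSB, FOSL1 and FOSL2. JUN made up 27.8, 29.5 and 30.5% of JUN-type mRNA with CC-885 and 5.75, 5.42 and 6.28% with DMSO. JUND made up 34.4, 31.2 and 30.55% in the CC-885 libraries and 61.6, 62.2 and 59.25% with DMSO. So the JUN share was higher and the JUND share lower in every CC-885 library than in any DMSO library (two-sided exact permutation p = 0.1 for each, the smallest that 3 against 3 libraries allow). The ratio of JUN to JUND was 0.918 ± 0.0992 with CC-885 and 0.0955 ± 0.00966 with DMSO, a 9.62-fold difference that does not depend on the lengths.

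In the FOS group FOSL2 held 34.5, 32.8 and 31.05% in the CC-885 libraries and 73.4, 68.6 and 67.7% with DMSO. FOSL1 held 41.1, 41.1 and 45.7% in the CC-885 libraries and 17.04, 20.5 and 21.4% with DMSO. FOS held 20.6 ± 1.91% with CC-885 and 9.25 ± 1.40% with DMSO, and FOSB 3.94 ± 0.600% and 1.21 ± 0.655% (SD, n = 3). Thus FOSL2 held a smaller share and FOSL1, FOS and FOSB larger ones, and none of these 4 shares overlapped between the groups (exact permutation p = 0.1 for each, and 0.1 after Benjamini-Hochberg adjustment over the 7 shares). The size of every share rested on the length chosen. By coding length FOSL2, not FOSL1, was the highest FOS-type gene with CC-885 (210.7 to 237.7 against 76.9 to 92.9 CPM per kb). JUN was then the highest JUN-type gene (643.8 to 747.7 CPM per kb, JUNB 421 to 488.1). For JUNB the direction rested on the length too. Its share was 38.7 ± 0.800% with CC-885 and 33.2 ± 1.14% with DMSO by transcript length. The difference changed sign with coding length (-1.38 points) and with undivided counts (-0.905 points).

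**Figure D2:**
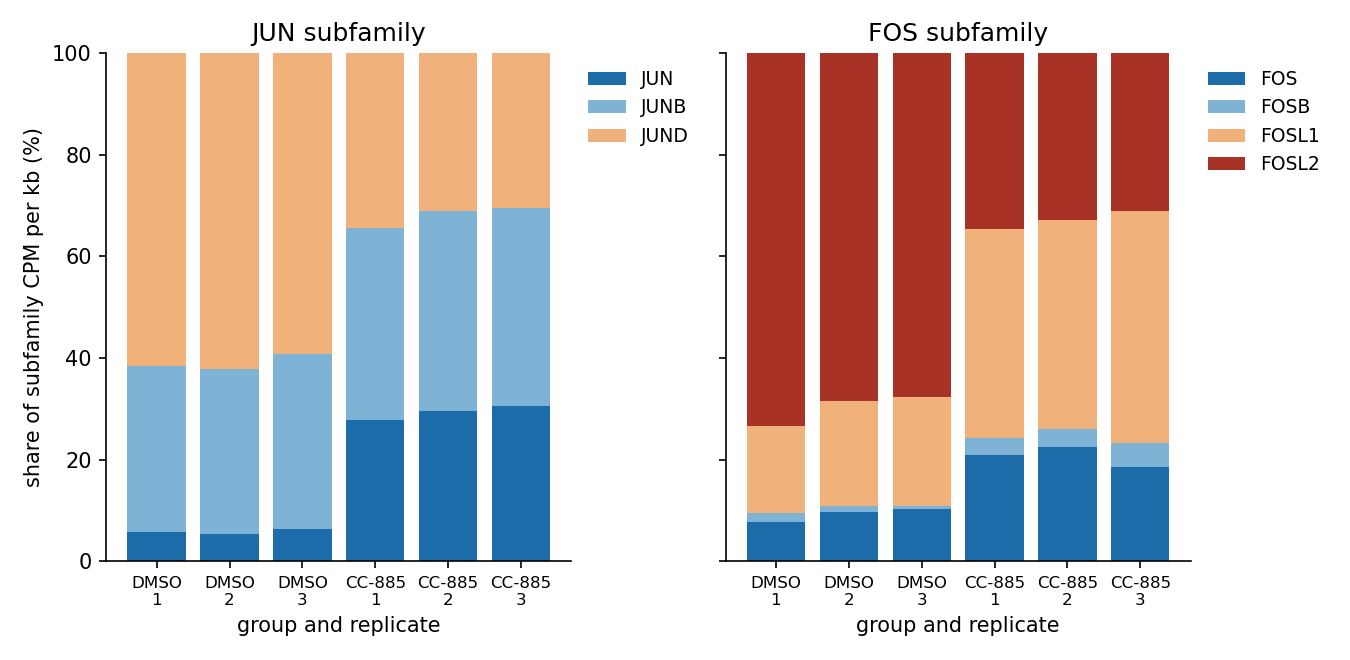
Share (%) of each gene in the summed CPM per kb (longest transcript as length) of its subfamily, with 1 bar per library. In the DMSO bars JUND and FOSL2 hold 59.25 to 62.2% and 67.7 to 73.4%, and in the CC-885 bars 30.55 to 34.4% and 31.05 to 34.5%.

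Summed over the subfamily by transcript length, JUN-type mRNA stood at 659.5 ± 46.55 CPM per kb with CC-885 and 161.5 ± 17.8 with DMSO. FOS-type mRNA stood at 98.5 ± 7.27 and 30.4 ± 5.57 (exact permutation p = 0.1 for each). The size of these sums and of their rise rested on the length chosen. By coding length FOSL2 alone had a median of 215.7 CPM per kb with CC-885 and 149.2 with DMSO. In DMSO the order of levels per kb was JUND, JUNB, FOSL2, JUN, FOSL1, FOS, BATF3 and FOSB, and the library ranges of JUN and FOSL1 overlapped. With CC-885 it was JUNB, JUND, JUN, FOSL1, FOSL2, FOS, FOSB and BATF3, and those of JUND and JUN overlapped. With coding length in place of transcript length the order was JUND, FOSL2, JUNB, JUN, FOSL1, BATF3, FOS and FOSB in DMSO, where JUND overlapped FOSL2 and FOSL1 overlapped BATF3. With CC-885 it was JUN, JUNB, JUND, FOSL2, FOSL1, FOS, BATF3 and FOSB, where BATF3 overlapped FOSB. By both lengths JUND led in DMSO, and the 3 JUN genes led with CC-885.

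The other bZIP proteins that can pair with FOS or JUN moved in both directions. Of 13 tested genes in this list 6 were higher (46.2%, against 25.8% of all tested genes) and 3 lower, and the median was 0.65 on the log2 scale. ATF3, a stress-induced partner of JUN, rose from 15.9 ± 2.83 to 393 ± 53.4 CPM (4.62, SE 0.19, edgeR adjusted p = 4.44e-08). CREB5, a relative of ATF2, was at 13.4, 13.4 and 14.2 CPM with CC-885 and 0.496, 0.299 and 0.368 CPM with DMSO (5.12, adjusted p = 5.46e-08). MAFK, a small MAF protein, rose from 71.1 ± 10.0 to 279 ± 39.5 CPM (1.97, adjusted p = 4.15e-06). The large MAF gene MAFA was lower (-0.77, adjusted p = 0.00275), at 3.31 ± 0.136 against 5.65 ± 0.133 CPM, while 26.8% of all tested genes were lower. ATF7 was lower too (-0.56, adjusted p = 0.0202), but not when CC-885 replicate 1 (adjusted p = 0.0586), replicate 2 (0.0604), replicate 3 (0.0577) or DMSO replicate 3 (0.0564) was left out. BATF, BATF2 and MAF were too low to be tested.

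Of 12 tested genes for factors known to act on FOS and JUN promoters, 8 were higher (66.7%, against 25.8% of all tested genes) and 1 lower (26.8% of all), with a median of 0.89. SRF, which binds the serum response element, gave 278, 289 and 272 CPM with CC-885 and 136, 109.7 and 155 CPM with DMSO (log2 fold change 1.06, SE 0.15, edgeR adjusted p = 0.000154). Its actin-regulated partner MRTFB rose from 19.0 ± 2.32 to 49.2 ± 11.3 CPM (1.37, adjusted p = 0.000104). CREM, a factor of cAMP response elements that can also encode a repressor, rose from 44.8 ± 4.43 to 103 ± 10.5 CPM (1.20, adjusted p = 3.49e-05). The lower gene, MEF2C, was scarce (0.444 ± 0.300 against 1.09 ± 0.0975 CPM, -1.26, adjusted p = 0.0432). It was not called when CC-885 replicate 1 (adjusted p = 0.0864) or 3 (0.0714) or DMSO replicate 1 (0.113) or 2 (0.0991) was left out, nor by the DESeq2 test (0.0521).

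The RAS, RAF and MAP kinase genes, whose products act on AP-1 largely by phosphorylation, had 12 higher and 3 lower of 32 tested (median 0.15). The 37.5% called higher compare with 25.8% of all tested genes, and 26.8% of all were lower. BRAF (26.2 ± 2.41 to 62.3 ± 9.09 CPM, log2 fold change 1.25, edgeR adjusted p = 4.41e-05), the JNK pathway kinase MAP3K1 (1.15, adjusted p = 4.76e-05) and the p38 activator MAP2K3 (0.74, adjusted p = 0.000633) had the smallest p among the higher. Lower were MAP2K6, the other main p38 activator (23.7 ± 3.64 to 7.09 ± 0.857 CPM, -1.74, adjusted p = 1.24e-05), and the p38 isoforms MAPK13 (-1.69, adjusted p = 2.78e-05) and MAPK12 (-0.41, adjusted p = 0.0357). The call of MAPK12 was lost without any single library other than DMSO replicate 3 (adjusted p 0.0587 to 0.126) and when GC content and length entered as offsets (0.175). Without DMSO replicate 1 the number of higher genes was 7, and without CC-885 replicate 3 it was 8. Without DMSO replicate 2 the lower genes numbered 5.

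Genes of AP-1 protein and mRNA turnover formed short lists, with 37.5% and 33.3% of members called higher, near the 25.8% of all tested genes. Lower calls numbered 1 of 8 and 0 of 6, while 26.8% of all tested genes were lower. Of 8 genes of ubiquitin ligases known to act on JUN (FBXW7, ITCH and the CUL4 complex with COP1 and DET1), 3 were higher: ITCH, a ligase for JUN (0.87, edgeR adjusted p = 0.000234), FBXW7, a ligase receptor for phosphorylated JUN (0.85, adjusted p = 0.000654), and DDA1, a part of CUL4 ligases (1.06, adjusted p = 0.000401). CUL4B, the cullin scaffold, was lower (-0.40, adjusted p = 0.0213), but not when CC-885 replicate 1 (adjusted p = 0.0786) or 2 (0.126) was left out. The median of this list was -0.04. Of 6 genes for proteins that bind AU-rich elements, 2 were higher and 0 lower (edgeR; 0 lower at an unadjusted p below 0.05, by DESeq2 and by limma-voom), with a median of 0.59. These were the decay factors ZFP36L2 (50.05 ± 10.1 to 105 ± 5.8 CPM, 1.06, adjusted p = 0.000184) and ZFP36L1 (0.77, adjusted p = 0.0146). The groups of ZFP36L1 overlapped, and its call was lost without DMSO replicate 2 (adjusted p = 0.0786). Without that library 1 gene of the list was called higher, and without DMSO replicate 3 there were 4.

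Of 28 genes widely used as AP-1 targets, 20 were tested, 11 were higher (55.0%, against 25.8% of all tested genes) and 2 lower (26.8% of all), with a median of 0.70. IL6, the inflammatory cytokine, had the largest increase (7.09, SE 0.18, edgeR adjusted p = 1.81e-09). HBEGF, a ligand of the EGF receptor, rose from 5.29 ± 1.33 to 40.8 ± 2.02 CPM (2.95, adjusted p = 9.92e-07). PHLDA1, an early-response protein, gave 79.7, 79.3 and 77.0 CPM with CC-885 and 16.9, 16.2 and 20.4 CPM with DMSO (2.14, adjusted p = 8.85e-07). Lower were PLAU, which encodes urokinase (5.70 ± 0.526 to 2.01 ± 0.556 CPM, -1.51, adjusted p = 0.000276), and the protease inhibitor gene TIMP1 (124 ± 11.9 to 83.9 ± 5.69 CPM, -0.56, adjusted p = 0.0035), the latter not called once GC content and length entered as offsets (adjusted p = 0.163). The MMP genes of the list, named here after their values were seen, differed. The collagenase MMP1 and the stromelysins MMP3 and MMP10 had 0 counts in all 6 libraries, and MMP13 was too low to be tested. MMP9 was higher (4.71 ± 0.239 against 1.15 ± 0.240 CPM, 2.025, edgeR adjusted p = 3.15e-05).

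**Figure D3:**
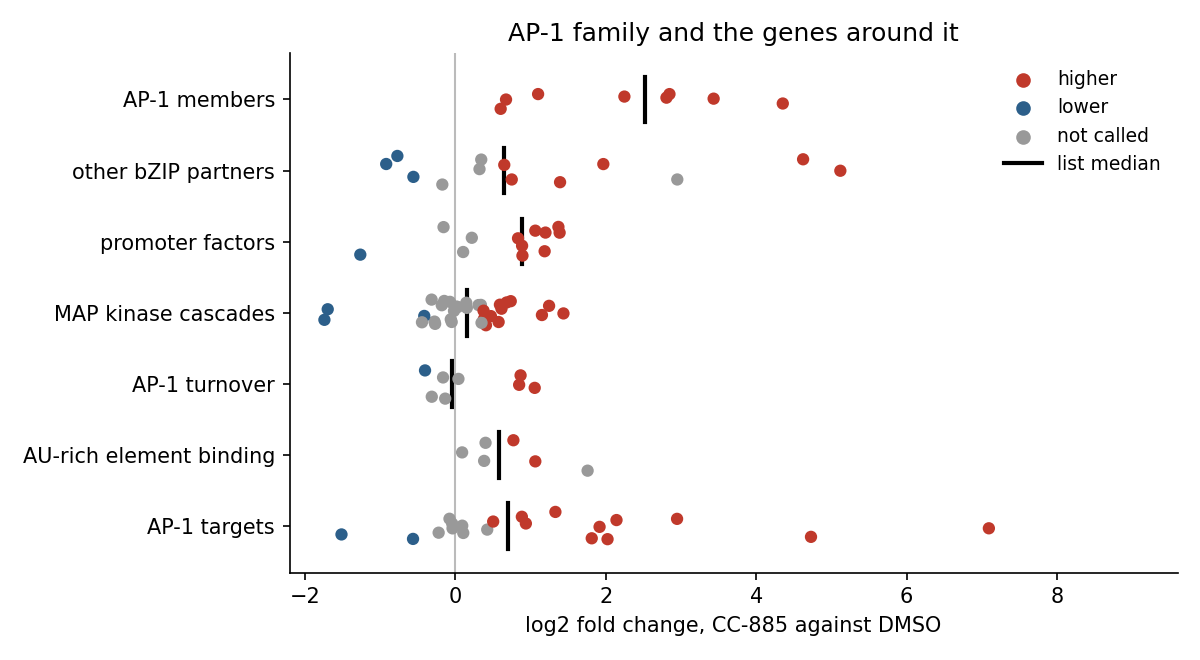
Log2 fold change of CC-885 against DMSO for every tested gene of the AP-1 family and of 6 lists around it, coloured by the call, with the median of each list as a bar and points spread vertically for visibility. The family's median of 2.53 lies to the right of the medians of the other lists (-0.04 to 0.89).

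The genes next to the AP-1 members on the chromosome were taken in RefSeq order. Of 16 neighbouring protein-coding genes 15 were tested, 1 was higher, 8 were lower and 6 were not called, while 25.8% of all tested genes were higher and 26.8% lower. The higher one was MYSM1 beside JUN, a histone H2A deubiquitinase (0.62, SE 0.16, edgeR adjusted p = 0.00806), while FGGY on the other side of JUN was lower (-1.23, adjusted p = 3e-04). TMED10 beside FOS was lower (-0.65, adjusted p = 0.0018), and JDP2, a bZIP repressor of AP-1 on its other side, was not called (42.1 ± 10.3 against 33.1 ± 8.73 CPM, 0.35, adjusted p = 0.233) but passed as higher without DMSO replicate 3 (0.57, adjusted p = 0.0225). Both neighbours of FOSL1, CCDC85B (-1.04, adjusted p = 0.000185) and C11orf68 (-0.69, adjusted p = 0.00138), were lower. So were RTN2 beside FOSB (-0.78, adjusted p = 0.00294) and the peroxiredoxin PRDX2 beside JUNB (-0.70, adjusted p = 0.0021). LSM4 beside JUND (-0.60, adjusted p = 0.0286) and NSL1 beside BATF3 (-0.48, adjusted p = 0.0368) were lower with overlapping groups. LSM4 was not called when CC-885 replicate 3 (adjusted p = 0.118) or DMSO replicate 1 (0.0728) or 2 (0.12) was left out, or with the offsets (0.158), and NSL1 not without CC-885 replicate 1 (0.125) or 2 (0.149) or DMSO replicate 2 (0.139) or 3 (0.0692). BABAM2 (-0.22, adjusted p = 0.162) and PLB1 (0.62, adjusted p = 0.144) beside FOSL2 and IQCN (-0.29, adjusted p = 0.552) beside JUND were not called, and GARIN4 beside BATF3 was too low to be tested. BABAM2 passed as lower without DMSO replicate 2 (-0.30, adjusted p = 0.0391). PLB1 had nearly the same fold change as FOSL2 (0.60), at 0.877 ± 0.121 against 0.571 ± 0.151 CPM.

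**Figure D4:**
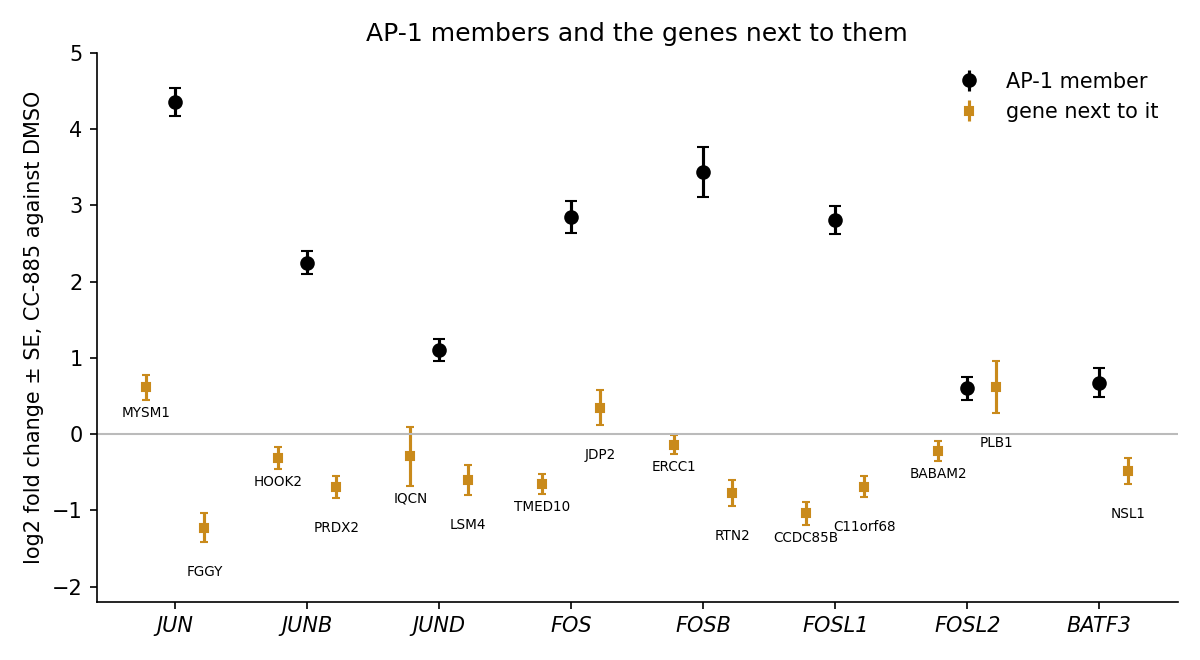
Log2 fold change (± SE) of each AP-1 gene (black) and of the tested protein-coding genes directly before and after it on the chromosome (orange). The neighbours run from -1.23 to 0.62, while the AP-1 genes run from 0.60 to 4.35.

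Likeness over the libraries was measured as Pearson's r of log2 CPM over the 6 libraries, against 10795 genes with a mean of at least 5 CPM that are no members. With 2 groups this r mostly follows the treatment, and from 30 (BATF3) to 1523 genes (FOSL1) exceeded 0.95 for a member. The genes most like JUN were CACNB1 and the matricellular gene CCN2 (r = 0.9996 for both), and CCN2 stood at 1109 against 75.6 CPM. For JUNB they were ZNF764 (0.9999) and ANKLE2 (0.9997), for JUND ZNF496 (0.9995) and ZFAND3 (0.9994), and for FOS the MAP kinase phosphatase DUSP10 (0.9989) and SULT4A1 (0.9984). For FOSL1 they were RBMS1 (0.9998) and ENSG00000275895 (0.9991), for FOSL2 RBM19 (0.9981) and PHLDB1 (0.9980), for FOSB DSTYK (0.9952) and SYDE2 (0.9949), and for BATF3 RIOX1 (0.9916) and EGLN2 (0.9788). These values share libraries and scaling and describe only these 6 libraries.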

How the data were processed

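The authors deposited raw counts, as whole numbers for each gene and library, with no normalisation. RNA libraries were made from total RNA with an mRNA kit, per the labels' protocols. In the sources used here, no aligner, counter or annotation is given. Of builds, the submitters' processing notes name only GRCm38 and mm10, both mouse, although row identifiers are human, so the counted genes are given without coordinates, and only the RefSeq promoter windows carry them. Symbols came from a gene name table for 20148 rows and from GENCODE 29 for 76, and 39 stayed without one. Of counts from 1 to 20, 66.8% were even, so a fragment may have been counted more than once and limits set by a count of 0 may be too low.

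The fit used edgeR 4.0.16 in R 4.3.3 (TMM, filterByExpr with minimum count 10, robust quasi-likelihood F test, CC-885 against DMSO, Benjamini-Hochberg adjustment over 13444 genes, calls below 0.05) and was tested on simulated data. SE was derived from F, as the unsigned log2 fold change divided by the root of F. Shares were compared by exact permutation tests (SciPy 1.17.1). Libraries of a group differed by more than sampling noise (chi-square per degree of freedom 24.4 or more).

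The members and lists were chosen with earlier results of these data known. Genes named are the 8 members, up to 3 higher and 3 lower genes of each list with the smallest p, the 2 genes most like each member, and the neighbours, except for items that are not reported here. GENCODE 29 gives MAFK, DDA1, BRAF, TIMP1, PLAU and IL6 a protein-coding or named gene on the opposite strand and MAPK12 one on the same strand, which makes their counts uncertain. The alternatives tried comprised scaling by DESeq2 size factors or by library size alone, DESeq2 1.42.0, limma-voom (limma 3.58.1), other filters, a replicate block, offsets for GC content and length, each library left out and, added after seeing the data, halved counts.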

Additional observations from a re-analysis of the deposited data

How the results depend on the processing

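All 8 members kept a positive log2 fold change under the 15 alternatives run (14 for BATF3, which the filter of 5 CPM in 3 libraries removed, leaving 7 called). JUN ran from 4.24 to 4.49, FOSB from 3.18 to 3.93, FOS from 2.72 to 3.10, FOSL1 from 2.70 to 3.10, JUNB from 2.16 to 2.61, JUND from 1.04 to 1.58, BATF3 from 0.52 to 0.82 and FOSL2 from 0.49 to 0.72, and the only lost call was that of BATF3 without CC-885 replicate 1. The sign of the JUNB share difference turned with coding length (-1.38 points) and with counts not divided by length (-0.905 points). Lower MAP kinase genes numbered 5 with library size only and 5 with the 5 CPM filter. Lower promoter factors numbered 0 with the DESeq2 test, with the 5 CPM filter and with the replicate block. Higher AU-rich element binding genes numbered 5 with the DESeq2 test and 4 with GC content and length as offsets. Higher AP-1 targets numbered 7 with the 5 CPM filter and lower ones 1 with the offsets. The cause of these shifts was not tested beyond the fewer genes that the stricter filter tests. With single libraries left out, higher MAP kinase genes ran from 7 to 11 and lower ones from 2 to 5, lower promoter factors from 0 to 1, lower turnover genes from 0 to 2 and higher AU-rich element binding genes from 1 to 4. Whether a replicate number marks a shared batch is not stated. Deviations from the group means correlated at 0.228, 0.067 and 0.134 between same-numbered libraries and at 0.026 or less between others. So each library was most like the one with its own number. That is only a weak hint, because deviations within a group sum to 0, which ties these correlations to each other. The replicate block gave 7273 calls in place of 7069, left 8 members called, and cost MEF2C (adjusted p = 0.0522) and ZFP36L1 (0.0784) their calls, while MAFG gained one (0.36, adjusted p = 0.0314, against 0.781 without the block). Without DMSO replicate 2 EGLN2 was not called (adjusted p = 0.0525). HOOK2 passed with the 5 CPM filter (adjusted p = 0.0455) and RIOX1 with the offsets (0.00438).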

Other observations

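Some genes around AP-1 had a library far from the others of its group, in 1 or both groups, and were picked for that after looking at them. MAFF, a small MAF protein induced by stress, gave 19.4, 92.0 and 16.6 CPM with CC-885 and 2.50, 6.59 and 7.52 CPM with DMSO, so every CC-885 library was above every DMSO library, yet the gene was not called (log2 fold change 2.95, SE 0.97, edgeR adjusted p = 0.0628). Without CC-885 replicate 2 its log2 fold change was 1.71 and it was called (adjusted p = 0.0345). MAFG, another small MAF protein, gave 170.3, 167 and 39.8 CPM with CC-885 and 131, 142 and 28.8 CPM with DMSO: replicate 3 was the low library in both groups, and the gene was not called (0.32, edgeR adjusted p = 0.781). The mRNA decay factor ZFP36 gave 15.0, 15.0 and 52.8 CPM with CC-885 and 10.1, 9.75 and 4.54 CPM with DMSO (1.76, edgeR adjusted p = 0.0941), with replicate 3 at the extreme of both groups. ZFP36 too was called by DESeq2 (adjusted p = 0.0231), by limma-voom (0.0278) and with the offsets (0.0411). The JNK activator MAP2K4 gave 17.6, 46.8 and 18.4 CPM with CC-885 and 12.0, 10.5 and 8.04 CPM with DMSO (1.44, edgeR adjusted p = 0.0384). Without CC-885 replicate 2 this was 0.83 (adjusted p = 0.0057), and without DMSO replicate 1, 2 or 3 the call was lost (adjusted p = 0.0862, 0.114 and 0.178). The p38 kinase gene MAPK14 gave 47.7, 36.7 and 94.1 CPM with CC-885 and 38.6, 107 and 96.5 CPM with DMSO, a spread within each group that exceeded the difference between them.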
